A study of Homo sapiens with 12 samples.

Results

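Glycolysis and hypoxia response genes were examined in RNA-seq of HUDEP-2, an immortalised line of human red cell precursors that carries the Kit receptor. The list held 37 genes, taken by symbol from a table of 54628 genes, and all 37 were found in it and had enough counts to be tested. Of these, 4 code for glucose and lactate transporters, 17 for glycolytic enzymes from hexokinase to lactate dehydrogenase, 4 for regulators of flux, 4 for oxygen sensing and 8 for other targets of the hypoxia response. The 12 libraries formed 4 groups of 3 replicates. Cells carried a scrambled guide (sgControl) or one that brings CRISPR interference to an element upstream of EGR1 (sgEGR1). They were given PBS or, as the ligand of Kit, stem cell factor (SCF) at 50 ng/mL for 1 h. All groups shared expansion in StemSpan SFEM with SCF, EPO, dexamethasone and doxycycline, and then 5 h of starvation in medium with bovine serum albumin. Guides and KRAB-dCas9 came from lentivirus, and infected cells were sorted for GFP. The sources used here do not say whether these cells were pools or clones. The comparisons ask what acute Kit activation did to these genes, and whether the EGR1 guide changed their level or their response.

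Glycolysis splits glucose into pyruvate in the cytosol and yields ATP without oxygen. The transcription factor HIF, made of an oxygen-sensitive alpha subunit (HIF1A or EPAS1, also called HIF-2 alpha) and the stable partner ARNT, raises many of its enzymes when oxygen is low. Prolyl hydroxylases of the EGLN family mark the alpha subunit for destruction when oxygen is present, so control acts largely on the protein rather than the mRNA. Mature red cells have no mitochondria and live on glycolysis alone, and their precursors remove mitochondria through BNIP3L, also called NIX.

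Library totals ran from 23.5 to 32.04 megacounts, and values below are CPM, counts per megacount scaled by TMM factors. EGR1, the target of the guide, was at 5.99 to 10.9 CPM in sgControl and 0.977 to 2.04 CPM in sgEGR1 cells after PBS. After SCF it was at 171 to 239 CPM in sgControl cells and at 40.4 and 57.4 CPM in sgEGR1 replicates 1 and 2. The sgEGR1 SCF library labelled replicate 3 held 204 CPM, inside the sgControl range and against its label, so values after its removal are given beside several results below. In each of the 4 groups replicate 1 differed from the other 2 replicates, and a fit with a term for replicate 1 is given beside the results it changes. All 11 erythroid precursor markers, among them HBB, GATA1, KLF1 and KIT, were detected, though not all of them in every library. Together they summed to 20631 to 23888 CPM in a library. Of 4 megakaryocyte, 5 myeloid, 4 lymphoid and 5 stromal or endothelial markers, 3 of each list were at 0 in all libraries, and only the megakaryocyte list summed to more than 1 CPM. In bulk RNA, fewer cells that express a gene and less of its RNA per cell cannot be told apart.

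Promoter sequence is shown for 5 members. PGK1 and PFKFB3 were not called for SCF in the fit without a replicate term, and EPAS1, PKM and ALDOC were called between replicates. Of the members that fit called for SCF, SLC16A3 had 5 starts, not shown, and VEGFA and BNIP3L had no promoter entry. Each window is the 250 bases before a RefSeq start site on GRCh38.p14, read 5′ to 3′ on the strand of the gene. HIF binds a core that reads ACGTG or GCGTG, and capitals mark those letters on either strand, so that CACGT and CACGC are the same letters on the other strand. The PGK1 window is chrX:78103998-78104247 (plus strand). The PFKFB3 windows of the upstream and downstream start are chr10:6144671-6144920 and chr10:6202682-6202931 (plus strand). The EPAS1 window is chr2:46297157-46297406 (plus strand), that of ALDOC is chr17:28576896-28577145 (minus strand) and that of PKM is chr15:72231191-72231440 (minus strand).
PGK1: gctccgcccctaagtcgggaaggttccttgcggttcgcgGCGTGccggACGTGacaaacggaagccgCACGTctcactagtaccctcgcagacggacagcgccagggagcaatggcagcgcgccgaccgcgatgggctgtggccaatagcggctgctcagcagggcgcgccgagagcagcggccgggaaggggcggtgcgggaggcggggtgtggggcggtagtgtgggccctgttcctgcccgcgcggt
PFKFB3 upstream start: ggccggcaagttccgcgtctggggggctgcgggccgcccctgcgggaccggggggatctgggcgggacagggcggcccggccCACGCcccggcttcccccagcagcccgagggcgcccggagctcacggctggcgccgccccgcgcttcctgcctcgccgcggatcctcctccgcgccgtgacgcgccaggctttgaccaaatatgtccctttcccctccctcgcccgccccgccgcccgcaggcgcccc
PFKFB3 downstream start: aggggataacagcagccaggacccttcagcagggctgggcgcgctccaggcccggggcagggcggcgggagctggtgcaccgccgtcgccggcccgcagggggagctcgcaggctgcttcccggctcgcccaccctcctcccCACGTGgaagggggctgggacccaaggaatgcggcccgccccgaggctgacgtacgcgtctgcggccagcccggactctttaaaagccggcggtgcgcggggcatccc
EPAS1: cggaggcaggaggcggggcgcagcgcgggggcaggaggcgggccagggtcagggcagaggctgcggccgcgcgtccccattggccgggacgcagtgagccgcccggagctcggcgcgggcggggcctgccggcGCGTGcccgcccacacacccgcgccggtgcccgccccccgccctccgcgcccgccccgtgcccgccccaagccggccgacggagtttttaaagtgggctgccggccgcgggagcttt
ALDOC: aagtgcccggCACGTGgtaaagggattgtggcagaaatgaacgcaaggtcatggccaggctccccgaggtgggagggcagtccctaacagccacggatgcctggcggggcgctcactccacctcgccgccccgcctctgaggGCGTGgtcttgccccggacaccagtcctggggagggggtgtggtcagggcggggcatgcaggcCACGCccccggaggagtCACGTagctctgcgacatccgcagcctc
PKM: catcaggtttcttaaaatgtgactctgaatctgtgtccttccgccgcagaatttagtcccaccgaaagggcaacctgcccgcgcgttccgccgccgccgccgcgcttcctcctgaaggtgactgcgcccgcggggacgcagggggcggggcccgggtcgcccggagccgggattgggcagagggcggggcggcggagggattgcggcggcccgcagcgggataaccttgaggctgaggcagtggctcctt

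The PGK1 window held 3 separate matches within 211 bases of the start, ALDOC held 4, EPAS1 and each PFKFB3 start held 1, and PKM held 0. Entries existed for 32 members with 60 start sites in all, and the others were SLC2A3, SLC16A1, BNIP3L, VEGFA and NDRG1. Of the 32, 27 (84.4%) had ACGTG or GCGTG at a start, against 64.1% of 10992 tested genes with an entry. Counted by start site the shares were 60% for members and 54.9% for all tested genes. The letters ACGTG alone were found at 59.4% of members and 28.3% of all tested genes, or at 36.7% and 22.2% of start sites. The letters GCGTG alone were found at 56.2% and 52.6% of genes, or at 35% and 43.5% of start sites. GCGTGGG, part of the site that EGR1 binds, contains GCGTG, and stood at 7 members (21.9%) and 11.3% of all tested genes, or at 11.7% and 8.6% of start sites. PFKFB3 was among the 7: the CACGC marked at its upstream start lies in CCCACGC, which is GCGTGGG on the other strand. A match describes the letters in a window and is not evidence of binding.

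Levels were compared between genes as CPM per kilobase of the canonical transcript, averaged over the 12 libraries, since longer transcripts give more reads. Of the 6 highest levels, all belonged to glycolytic enzymes. GAPDH, the dehydrogenase in the middle of glycolysis, was highest at 1622 ± 67.3 (SD, n = 12). LDHB at 681, ENO1 at 435, HK1 at 245, ALDOA at 226 and TPI1 at 219 CPM per kilobase came next. ALDOA ran from 155 to 390 over the libraries and overlapped HK1, TPI1, BNIP3L and LDHA, and HK1 overlapped TPI1. BNIP3L, the mitophagy receptor of red cell precursors, stood seventh at 182, ahead of LDHA at 155 and SLC2A1, the main glucose transporter of red cells, at 128. PGAM1 at 19.2 and PKM at 17.4 CPM per kilobase, which act in succession around enolase at the end of glycolysis, stood far below ENO1. Several members have named pseudogenes, among them GAPDH with 65, BNIP3 with 44, PGAM1 with 13, LDHA with 6 and PKM with 5. Reads that fit a gene and its copies make such levels, and shares built on them, uncertain. At the low end, ANKRD37, ADM, HK2, EGLN3 and SLC2A3 had at most 41 counts in any library, and none exceeded 0.444 CPM per kilobase on average.

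**Figure D1:**
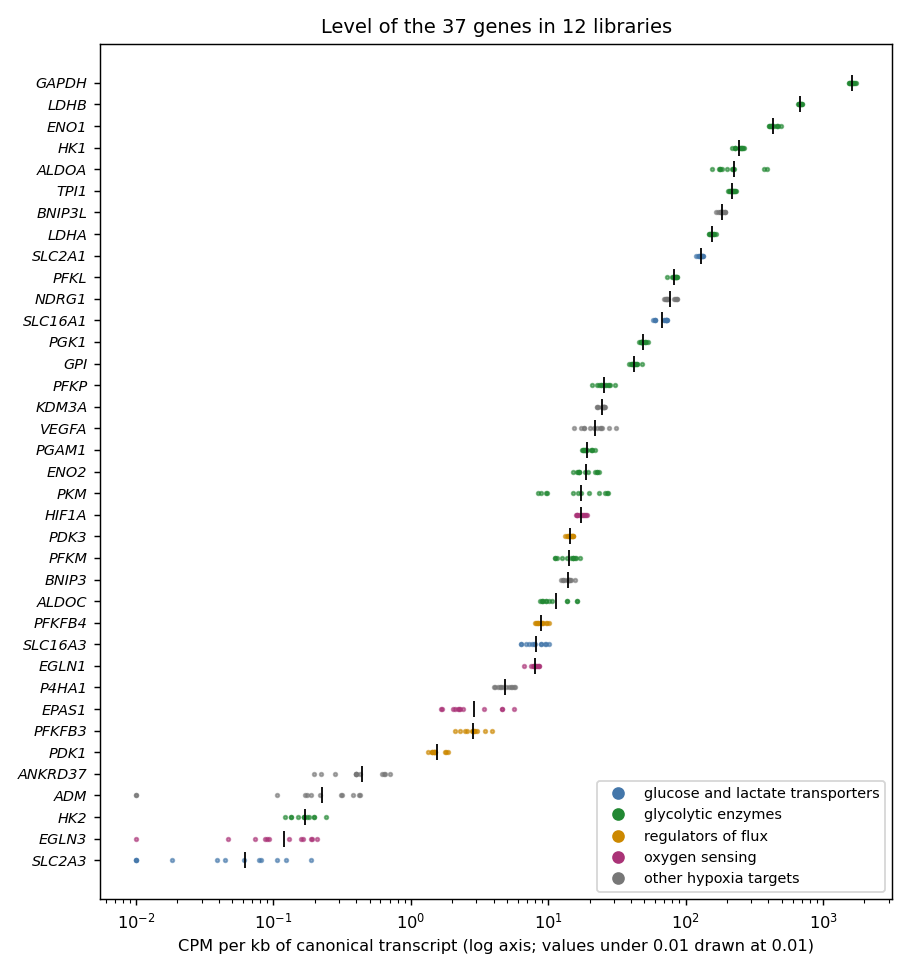
Level of each of the 37 genes in CPM per kilobase of canonical transcript on a log axis, 1 point per library (12 libraries), with a bar at the mean and colour for the role. GAPDH leads at 1622, and 5 genes lie below 1 CPM per kilobase, among them the inducible isoforms HK2, EGLN3 and SLC2A3.

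Within families of related proteins, 1 member usually held most of the summed level per kilobase. HK1, the hexokinase of red cells, held 99.9% against HK2, SLC2A1 held 99.95% of the glucose transporter pair, and EGLN1 held 98.5% against EGLN3. ENO1 held 95.8 ± 0.72% against ENO2 and ALDOA held 94.9 ± 1.84% against ALDOC. LDHB held 81.5 ± 0.681% (SD, n = 12) and LDHA, the subunit associated with lactate production and a HIF target, held 18.5%. Among phosphofructokinases, which set the committed step, PFKL held 67.6%, PFKP 20.9% and PFKM 11.5%. SLC16A1 held 89.2% of the lactate exporter pair, PDK3 90.4% against PDK1, BNIP3L 92.9% against BNIP3, HIF1A 86.1% against EPAS1 and PFKFB4 75.8% against PFKFB3. The leading member of a family thus held from 67.6% (PFKL) to 99.95% (SLC2A1) of its level. The PDK3 share depends on the canonical lengths used, 1.741 kb for PDK3 and 14.072 kb for PDK1. Mean CPM was 25.2 for PDK3 and 21.7 for PDK1, and their summed exon lengths were 17456 and 14845 bases. For 23 of the 37 genes an exon overlaps another gene on the same or the opposite strand in GENCODE v44, and use of strand in counting was not stated. ALDOA (chr16:30064164-30070457, plus strand), for instance, shares 1639 exon bases with a protein-coding neighbour on its own strand, and its canonical transcript has 1640 bases. LDHB and EGLN1 share 997 and 3004 exon bases in the same way, beside canonical lengths of 1303 and 4335 bases. Assignment of reads to such neighbours was not tested, so the levels and shares of these genes are uncertain.

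SCF raised VEGFA and SLC16A3 and lowered BNIP3L, by modest amounts, when the response was averaged over both guides. Of the 37 genes, 3 were called by edgeR (Benjamini-Hochberg adjusted p under 0.05), of which 2 were higher and 1 was lower. Over all 15492 tested genes, 9.03% were called, 5.58% as higher and 3.45% as lower, so the share of members called, 3 of 37, was near the background. The members' median log2 fold change was 0.05, against -0.00 for all genes tested, and 24 of 37 were positive. Same-numbered PBS and SCF libraries were weakly related (residual correlation 0.00766 to 0.272), so counts of such pairs are descriptive. A total of 8 members were higher with SCF in 6 of 6 same-numbered pairs (12% of all genes), namely LDHA, SLC16A3, TPI1, PGK1, PFKP, PFKFB3, VEGFA and HIF1A. BNIP3L and NDRG1 were lower in 6 of 6 pairs (10.1% of all genes).

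VEGFA, the angiogenic growth factor and a classical HIF target, had the largest called response. It read 81.7, 65.8 and 65.6 CPM in sgControl cells after PBS and 112, 87.1 and 85.4 CPM after SCF. In sgEGR1 cells it read 72.4, 55.7 and 62.6 CPM after PBS and 99.4, 77.7 and 88.7 CPM after SCF. Every SCF library lay above its same-numbered PBS library, and the pooled ranges overlapped only through replicate 1, which was highest in each group. The fit gave a 1.36-fold increase (log2 0.45 ± 0.09 SE, edgeR adjusted p = 0.0107), called in 12 of 12 fits that left out 1 library. Without the sgEGR1 SCF library labelled replicate 3 the value was the same to 2 decimals (0.45, adjusted p = 0.0254), and with the replicate 1 term the adjusted p was 3.74e-06. VEGFA lies at chr6:43770184-43786487 (plus strand), where a long noncoding RNA on the opposite strand shares 188 exon bases.

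Among transporters, SLC16A3, the lactate exporter MCT4, was higher with SCF, and the major transporters SLC2A1 and SLC16A1 were not called. SLC16A3 read 17.8, 16.5 and 16.3 CPM after PBS and 23.02, 19.8 and 20.7 CPM after SCF in sgControl cells. In sgEGR1 cells the readings were 24.4, 18.7 and 20.4 CPM after PBS and 24.9, 26.5 and 23.01 CPM after SCF. The PBS and SCF groups did not overlap in sgControl cells and overlapped at replicate 1 in sgEGR1 cells. The increase was 1.21-fold (log2 0.28 ± 0.07 SE, edgeR adjusted p = 0.0283), and it kept its call in 4 of 12 fits without 1 library, with an adjusted p of at most 0.0704. Those 4 left out sgControl PBS replicate 1, sgControl SCF replicate 2, sgEGR1 PBS replicate 1 or sgEGR1 SCF replicate 3, the last giving 0.0302. SLC2A1 and SLC16A1 differed by -0.03 ± 0.04 and 0.00 ± 0.08 on the log2 scale. SLC2A3, the neuronal glucose transporter, had the highest fitted value of all members (log2 1.98 ± 0.76, adjusted p = 0.136) but rested on 0 to 6 counts per PBS library and 2 to 23 per SCF library.

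None of the 17 glycolytic enzymes was called for SCF with edgeR, and their median log2 fold change was 0.05. LDHA, TPI1 and PGK1 read higher after SCF in 6 of 6 same-numbered pairs and PGAM1 in 5 of 6. PGK1, the first ATP-forming enzyme of glycolysis, ran from 219 to 231 CPM (median 229) in the 6 PBS libraries and from 233 to 254 CPM (median 242) in the 6 SCF libraries. All 6 SCF libraries lay above all 6 PBS libraries, a separation seen in that direction at 4.43% of all genes, and the difference was 0.09 ± 0.03 (edgeR adjusted p = 0.097). LDHA, which reduces pyruvate to lactate, ran from 329 to 343 CPM after PBS and from 341 to 369 CPM after SCF (0.08 ± 0.03, adjusted p = 0.102). PGAM1, the mutase before enolase, gave 0.15 ± 0.05 (adjusted p = 0.0663). With the replicate 1 term, edgeR called LDHA, TPI1, PGK1 and PGAM1, with adjusted p of 0.0333, 0.0265, 0.0149 and 0.0182, and without the sgEGR1 SCF library labelled replicate 3 in that fit LDHA was no longer called (0.0739). The abundant enzymes GAPDH, ENO1, HK1 and LDHB differed by -0.04 to 0.04 and were not called.

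PFKFB3, which makes the allosteric activator of phosphofructokinase, was the regulator of flux with the largest value. Its levels were 12.5, 9.45 and 10.1 CPM after PBS and 15.6, 12.9 and 12.7 CPM after SCF in sgControl cells. In sgEGR1 cells they were 12.8, 11.1 and 11.5 CPM after PBS and 17.5, 13.5 and 13.0 CPM after SCF. Each SCF library again exceeded its same-numbered PBS library, and PBS and SCF did not overlap within either guide, while the 6 PBS and 6 SCF libraries pooled over guides did. The fit gave 0.34 ± 0.10 (edgeR adjusted p = 0.0528), with a call in 7 of 19 alternatives. Adding the replicate 1 term lowered the adjusted p to 0.000538. The other regulators were not called: PDK1 and PDK3, kinases that switch off pyruvate dehydrogenase, gave -0.10 ± 0.08 and 0.05 ± 0.04, and PFKFB4 gave -0.09 ± 0.05.

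BNIP3L fell by a small amount and HIF1A stood slightly higher. BNIP3L ran from 631 to 670 CPM (median 655) after PBS and from 571 to 624 CPM (median 610) after SCF. All 6 SCF libraries lay below all 6 PBS libraries, as at 2.47% of all genes. The decrease was 1.08-fold (log2 -0.11 ± 0.03 SE, edgeR adjusted p = 0.042), and it was called in only 2 of 12 fits that left out 1 library, with an adjusted p of at most 0.125. Those 2 left out sgControl PBS replicate 1 or sgControl SCF replicate 3, and without the sgEGR1 SCF library labelled replicate 3 it was 0.115. HIF1A, the alpha subunit itself, ran from 63.2 to 72.4 CPM after PBS and from 68.2 to 75.2 CPM after SCF (0.13 ± 0.04, adjusted p = 0.0729). Erythroid markers moved beside these genes: SLC4A1, the anion exchanger of the red cell membrane, and EPOR were lower with SCF (log2 -0.26 and -0.14, adjusted p = 0.00856 and 0.036), while the summed marker level overlapped between treatments. Their part in the result was not tested. EPAS1 (0.27 ± 0.33, adjusted p = 0.701), BNIP3, ADM, KDM3A, P4HA1 and ANKRD37, the lowest fitted value (-0.13 ± 0.37), were not called.

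**Figure D2:**
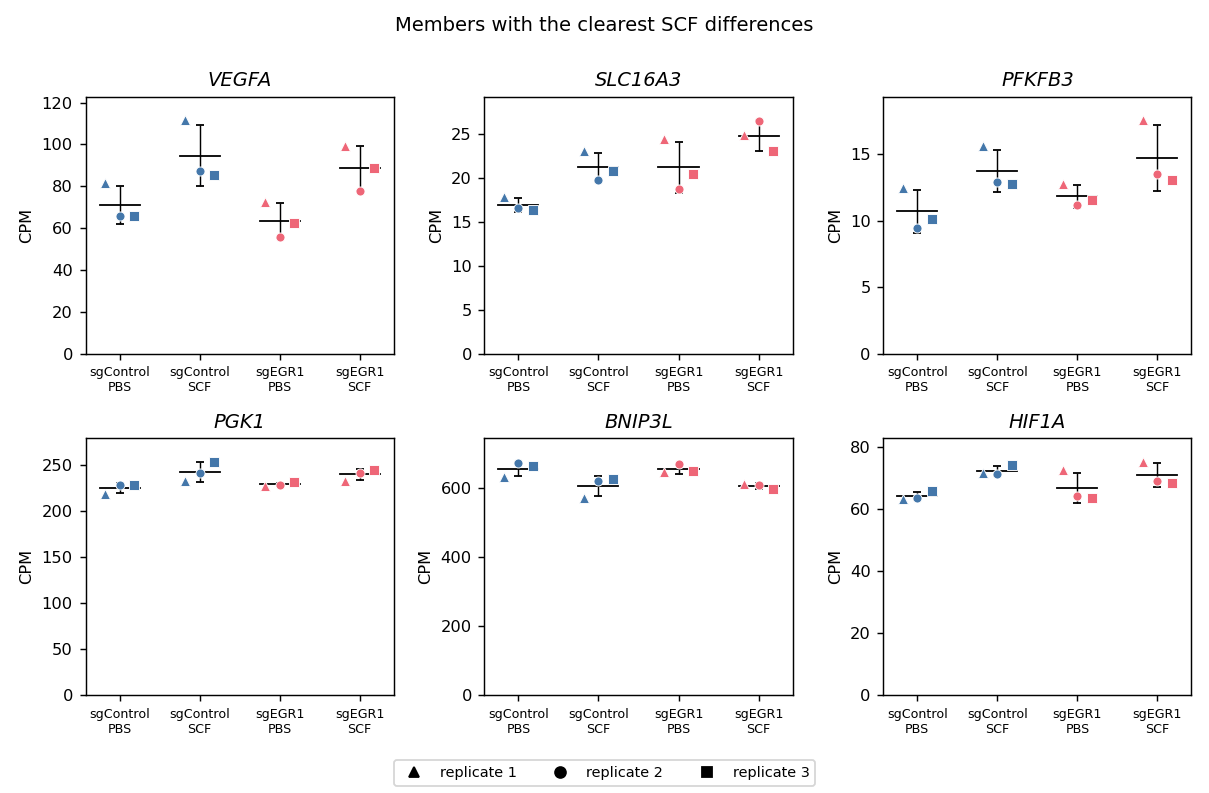
CPM of 6 genes in the 4 groups, 1 symbol per library with its shape for the replicate number, and a bar with whiskers for the mean ± SD of 3. VEGFA, SLC16A3 and PFKFB3 are higher after SCF within each replicate number, PGK1 and BNIP3L separate the treatments in all 12 libraries, and HIF1A overlaps.

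The replicate 1 term raised the number of members called in the averaged SCF response from 3 to 10, while 18.5% of all genes were called in that fit. The 10 were VEGFA, PFKFB3, SLC16A3, EPAS1, PGAM1, HIF1A, PGK1, TPI1 and LDHA, all higher, and BNIP3L, lower. EPAS1 stood at 0.24 ± 0.06 (edgeR adjusted p = 0.0103) in that fit. Replicates 2 and 3 alone gave 7 members, against 11.3% of all genes. Without the sgEGR1 SCF library labelled replicate 3 the fit with the term called 9, all but LDHA, and 15.4% of all genes. In the fit without the term, leaving out sgControl PBS replicate 2, sgEGR1 PBS replicate 2 or 3, or sgEGR1 SCF replicate 2 left VEGFA alone. The largest response among them stayed below 1.5-fold.

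Taken guide by guide, no member was called. In sgControl cells 0 of 37 were called by edgeR (8 at an unadjusted p under 0.05, against 2222 of 15492 genes), with 2.89% of all genes called. In sgEGR1 cells 0 of 37 were called (7 unadjusted, against 2328 of 15492 genes), with 2.59% of all genes called. DESeq2 called 1 member in each, VEGFA, with 4.62% and 4.73% of all genes called. VEGFA gave 0.41 ± 0.13 (edgeR adjusted p = 0.142) in sgControl and 0.48 ± 0.13 (0.0888) in sgEGR1 cells. With the replicate 1 term edgeR called VEGFA, EPAS1, PFKFB3, SLC16A3 and HIF1A in sgControl cells (8.32% of all genes) and VEGFA and PFKFB3 in sgEGR1 cells (8.56%). Besides genes already described, the extremes of the fitted values were PDK1 (-0.20 ± 0.11), ANKRD37 (-0.18 ± 0.54), ALDOA (-0.12 ± 0.29) and EPAS1 (0.39 ± 0.46) in sgControl cells. In sgEGR1 cells they were PFKFB4 (-0.20 ± 0.06), HK2 (-0.11 ± 0.28) and ADM (0.33 ± 1.03). Without the sgEGR1 SCF library labelled replicate 3, VEGFA in sgEGR1 cells was at 0.48 ± 0.15 (edgeR adjusted p = 0.198), and PFKFB4, HK2 and ADM were at -0.17, -0.11 and 0.10.

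The test of the difference between both responses, the interaction, called 0 members and 0% of all genes with edgeR, and DESeq2 called 0 members too. In edgeR 1 member had an unadjusted p under 0.05, against 306 of 15492 genes. That member was PFKFB4, a kinase and phosphatase for the same activator as PFKFB3. It read 31.6, 29.4 and 28.1 CPM after PBS and 28.8, 30.2 and 31.6 CPM after SCF in sgControl cells, and 35.3, 34.4 and 33.6 CPM after PBS and 29.3, 31.9 and 28.5 CPM after SCF in sgEGR1 cells. The treatments overlapped in sgControl cells and separated, with SCF lower, in sgEGR1 cells. The interaction was -0.23 ± 0.09 (unadjusted p = 0.0274, edgeR adjusted p = 1.0), and without the sgEGR1 SCF library labelled replicate 3 it was -0.19 ± 0.10 (unadjusted p = 0.0687). VEGFA and SLC16A3 gave interactions of 0.06 ± 0.19 and -0.10 ± 0.14. The 3 highest were PDK1 at 0.20 ± 0.16, P4HA1 at 0.17 ± 0.18 and ALDOA at 0.14 ± 0.41, and the 3 lowest were SLC2A3 at -1.31 ± 1.58, HK2 at -0.37 ± 0.39 and EPAS1 at -0.24 ± 0.65. Without that library EPAS1 was at 0.01 ± 0.67. The intervals were wide, and a p above the threshold does not show that the responses were alike.

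**Figure D3:**
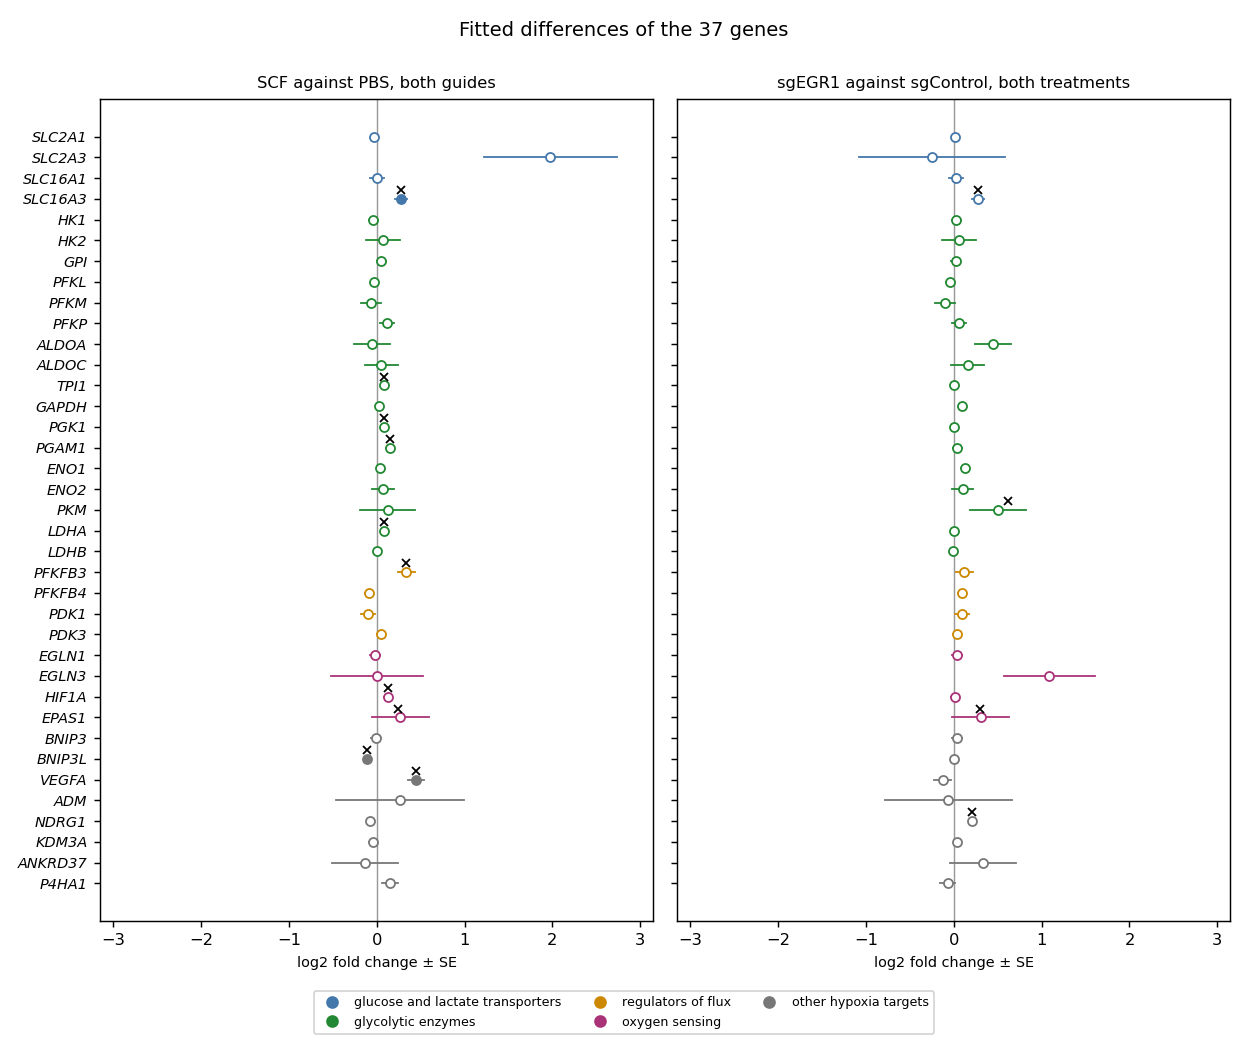
Log2 fold change ± SE of the 37 genes for SCF against PBS (left) and sgEGR1 against sgControl (right), by role. Filled points passed an edgeR adjusted p of 0.05, which only SLC16A3, BNIP3L and VEGFA on the left did, and a cross above a point marks a call once a replicate 1 term was added.

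Between guides, no member was called in the fit without a replicate term, yet 29 of 37 had a positive fitted difference for sgEGR1 cells on average. Counts of called genes were 0 of 37 members and 0% of all genes after PBS, after SCF and for the average over treatments, with 3, 4 and 5 members at an unadjusted p under 0.05 in edgeR. Over all 15492 genes tested, 715, 361 and 805 had such an unadjusted p. That fit ignores the pairing of libraries by replicate number between guides. With a replicate block, edgeR called 49 of 15492 genes for the averaged difference, and NDRG1 was the only member among them. DESeq2 called NDRG1 after PBS and on average, against 0.129% and 0.181% of all genes, and 0 members after SCF. The median log2 difference of the members was 0.04 for the average, against -0.00 over all genes tested. A total of 7 members were higher in sgEGR1 cells in 6 of 6 same-numbered pairs (3.69% of all genes), namely PKM, SLC16A3, PFKFB3, EPAS1, GAPDH, ENO1 and NDRG1. For GAPDH and NDRG1 all 6 sgEGR1 libraries lay above all 6 sgControl libraries, which held for 0.0839% of all genes.

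NDRG1, a hypoxia-induced gene linked to differentiation and stress, gave the most separated values. It read 220.1, 222 and 218 CPM after PBS and 209.8, 217 and 214 CPM after SCF in sgControl cells. In sgEGR1 cells it read 257, 261 and 261 CPM after PBS and 247, 253 and 226 CPM after SCF. The lowest sgEGR1 value belonged to the sgEGR1 SCF library labelled replicate 3, the one whose EGR1 level went against its label. The averaged difference was 1.16-fold (log2 0.21 ± 0.03 SE, edgeR adjusted p = 0.109), and without that library it was 0.23 ± 0.03 (adjusted p = 0.0113). The replicate numbers pair the libraries between guides, and with the replicate block the adjusted p was 0.0126, in a fit that called 0.316% of all genes and no other member. The adjusted p of DESeq2 was 1.38e-06. A long noncoding RNA on the same strand shares 753 exon bases with NDRG1.

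GAPDH and its neighbours in glycolysis differed less. GAPDH ran from 1974 to 2056 CPM (median 2013) in sgControl and from 2070 to 2246 CPM (median 2145) in sgEGR1 libraries (0.09 ± 0.03, edgeR adjusted p = 0.794). ENO1 ran from 717 to 778 CPM in sgControl and from 749 to 876 CPM in sgEGR1 libraries (0.13 ± 0.04, adjusted p = 0.799). The 17 glycolytic enzymes together summed to 6339 ± 65.3 and 6394 ± 104 CPM in sgControl cells after PBS and SCF, and to 6650 ± 207 and 6772 ± 393 CPM in sgEGR1 cells (SD, n = 3). Part of that sum came from ALDOA, the aldolase of muscle and red cells, which read 609 and 640 CPM in sgEGR1 replicate 2 after PBS and SCF and 255 to 367 CPM in the other 10 libraries. The ALDOA difference was 0.45 ± 0.20 (adjusted p = 0.959), and the part of its same-strand neighbour in these readings was not tested.

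PKM, the pyruvate kinase of most tissues, was higher in sgEGR1 cells within each replicate number. In replicates 2 and 3 it read 19.5, 20.4, 22.5 and 22.2 CPM in sgControl libraries and 34.7, 40.1, 45.8 and 37.7 CPM in sgEGR1 libraries. In replicate 1 it read 54.2 and 59.6 CPM in sgControl and 61.7 and 62.6 CPM in sgEGR1 libraries. The averaged difference over all libraries was 0.51 ± 0.32 (edgeR adjusted p = 0.969), and over replicates 2 and 3 alone it was 0.90 ± 0.07 (adjusted p = 0.00338). PKM was the only member called there, while 0.0774% of all genes were called. With the replicate 1 term the averaged guide difference called 4 members, PKM (0.62 ± 0.12, adjusted p = 0.0441), EPAS1 (0.30 ± 0.06, 0.0485), SLC16A3 (0.28 ± 0.05, 0.049) and NDRG1 (0.21 ± 0.03, 0.0115), all higher in sgEGR1 cells, against 0.374% of all genes. Leaving out the sgEGR1 SCF library labelled replicate 3 in that fit kept these 4 and added VEGFA as lower (-0.16 ± 0.03, 0.0377), against 1.47% of all genes.

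By fitted value in the edgeR fit without a replicate term, the guide differences were most extreme in the following members. On average EGLN3, a HIF-induced prolyl hydroxylase, gave 1.09 ± 0.52 (edgeR adjusted p = 0.969) from 0 to 18 counts per library, ahead of PKM and ALDOA. The lowest were SLC2A3 at -0.25 ± 0.83, VEGFA at -0.13 ± 0.09 and PFKM at -0.10 ± 0.12. After PBS the highest were EGLN3, PKM and EPAS1 (1.06 ± 0.74, 0.53 ± 0.45 and 0.43 ± 0.47) and the lowest VEGFA, P4HA1 and PFKM (-0.16, -0.16 and -0.13). After SCF the highest were EGLN3, ALDOA and PKM (1.11 ± 0.72, 0.51 ± 0.29 and 0.48 ± 0.44) and the lowest SLC2A3, HK2 and VEGFA (-0.90, -0.12 and -0.10). Without the sgEGR1 SCF library labelled replicate 3, the differences after SCF were 0.89, 0.63 and 0.64 for EGLN3, ALDOA and PKM and -1.37, -0.13 and -0.10 for SLC2A3, HK2 and VEGFA. None of these was called in the fits without a replicate term.

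**Figure D4:**
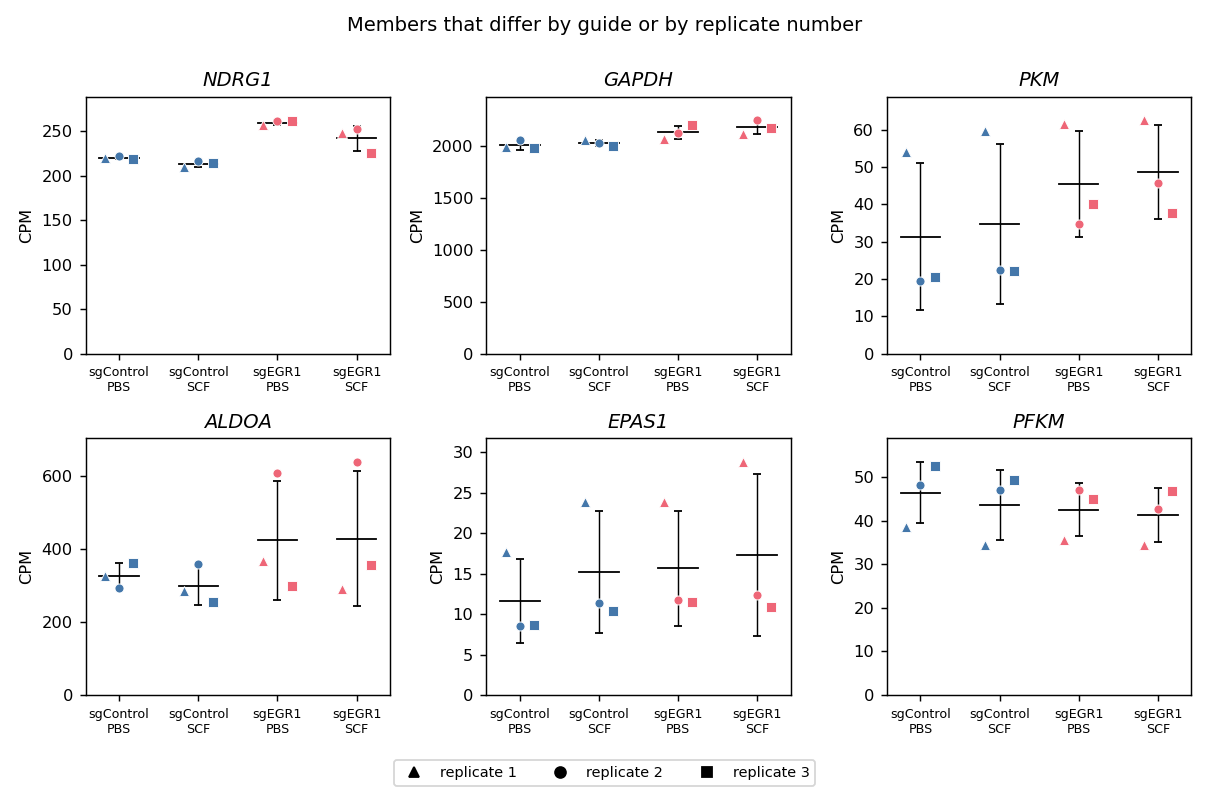
CPM of 6 genes in the 4 groups, with symbols for the replicate number and mean ± SD of 3. NDRG1 and GAPDH are higher in all 6 sgEGR1 libraries, PKM is higher in replicate 1 of both guides, ALDOA is high in sgEGR1 replicate 2, and EPAS1 and PFKM set replicate 1 apart.

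Replicate number separated more members than SCF or the guide did, whether or not the fits for SCF and the guide held a replicate 1 term. In a fit with 1 coefficient per group, edgeR called 15 members between replicate 1 and replicates 2 and 3, where 26.6% of all genes were called. Of these 9 were higher in replicate 1 (13.1% of all genes) and 6 were lower (13.4%), and the median over the members was -0.00. Replicates 2 and 3 differed at 0 members and 0.00645% of all genes with edgeR. An unadjusted p under 0.05 was found for 1 member, ALDOA, and for 597 of 15492 genes. The highest of replicate 2 over replicate 3 were ALDOA, ANKRD37 and HK2 (0.54 ± 0.18, 0.31 ± 0.50 and 0.21 ± 0.22), and the lowest SLC2A3, ADM and EGLN3 (-1.15 ± 0.92, -0.25 ± 0.93 and -0.10 ± 0.63). A total of 5 members had all 4 replicate 1 libraries above the other 8, PKM, ALDOC, PFKP, EPAS1 and ENO2 (5.54% of all genes). SLC16A1, HK1 and PFKM had all 4 below (6.24%). The labels name no batch for the replicate numbers, and the cause of the difference was not tested.

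EPAS1, the HIF-2 alpha subunit, differed most. Its replicate 1 libraries read 17.6 and 23.9 CPM in sgControl cells after PBS and SCF and 23.9 and 28.9 CPM in sgEGR1 cells, against 8.51 to 12.3 CPM (median 11.1) in the other 8. The groups did not overlap, and the fit gave a 2.2-fold difference (log2 1.14 ± 0.06 SE, edgeR adjusted p = 6.88e-08). HIF1A showed no such gap (63.2 to 75.2 CPM in replicate 1 and 63.6 to 74.0 CPM in the others), so the share of HIF1A in the HIF1A and EPAS1 pair was 77.3 to 82.4% in replicate 1 and 87.8 to 90.8% in replicates 2 and 3.

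Of the called enzymes, ALDOC, ENO2, PFKP and PFKM were minor isoforms in the families compared above. PKM was 2.05-fold higher in replicate 1 (1.04 ± 0.12, edgeR adjusted p = 3.61e-05). It was not a minor isoform, since the other pyruvate kinase gene, PKLR, read only 1.37 to 2.13 CPM. ALDOC, an aldolase best known from brain, read 22.1, 22.0, 26.2 and 25.9 CPM in replicate 1 and 14.1 to 17.0 CPM elsewhere (0.65 ± 0.05, adjusted p = 1.33e-06). ENO2, the neuronal enolase, read 49.9 to 53.4 CPM in replicate 1 and 34.9 to 44.3 CPM elsewhere (0.41 ± 0.04, 9.78e-06). PFKP was at 71.5 to 80.4 CPM against 54.4 to 69.4 CPM (0.25 ± 0.04, 0.000962) and PFKM, the muscle phosphofructokinase, was at 34.3 to 38.7 CPM against 42.6 to 52.4 CPM (-0.41 ± 0.04, 1.16e-05). The 3 phosphofructokinases together thus shifted in make-up, with PFKM at 8.82 to 9.89% of the summed level per kilobase in replicate 1 and 11.4 to 14.0% elsewhere. HK1 read 786 to 825 CPM in replicate 1 and 875 to 956 CPM elsewhere (-0.18 ± 0.03, 0.00027). GPI at 158 to 173 against 167 to 197 CPM (-0.11 ± 0.04, 0.0427) and TPI1 at 299 to 315 against 276 to 310 CPM (0.08 ± 0.02, 0.0394) were called although their ranges overlapped. GPI and TPI1 lost the call in 8 and 9 of 12 fits that left out 1 library, with adjusted p up to 0.196 and 0.15.

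The other calls by replicate number fell in every remaining role. SLC16A1, the lactate exporter MCT1, was at 217 to 225 CPM in replicate 1 and 259 to 276 CPM elsewhere (-0.27 ± 0.03, edgeR adjusted p = 6.81e-06), and SLC2A1 at 399 to 431 against 427 to 452 CPM differed by -0.09 ± 0.03 (0.0262), a call lost without sgControl PBS replicate 1 or sgControl SCF replicate 1 (0.0934 and 0.13). PFKFB3 (0.30 ± 0.05) and VEGFA (0.31 ± 0.04) were higher in replicate 1, as was PDK1, at 19.98 to 26.1 against 18.7 to 21.1 CPM (0.24 ± 0.05). P4HA1, a collagen prolyl hydroxylase and HIF target, was lower, at 11.1 to 12.4 against 11.9 to 15.6 CPM (-0.26 ± 0.06). HIF targets were found in both directions, and LDHA, PGK1, BNIP3, NDRG1 and KDM3A were not called. The uncalled extremes were ADM at 0.80 ± 0.70, HK2 at -0.39 ± 0.19 and EGLN3 at -0.56 ± 0.55, all with few counts. Beside these differences, the megakaryocyte marker ITGA2B was lower in replicate 1 (-0.93), the list summing to 12.01 to 15.8 CPM in replicate 1 and 20.3 to 35.2 CPM elsewhere, and among erythroid markers ALAS2 was called as higher and EPOR and GATA1 as lower. Their part in the result was not tested.

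**Figure D5:**
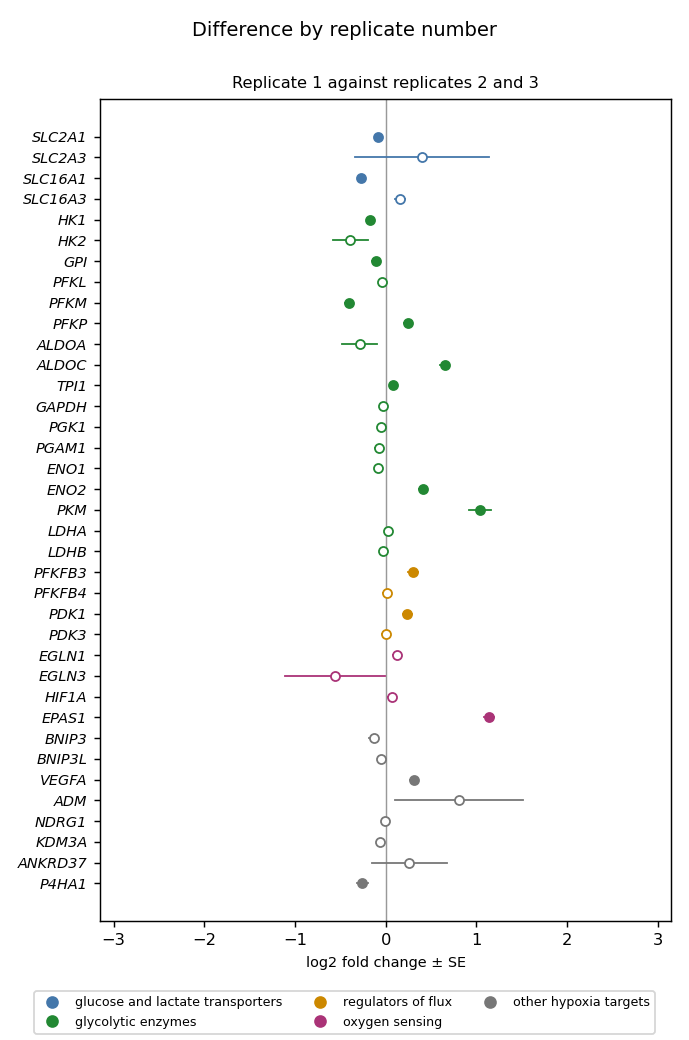
Log2 fold change ± SE of the 37 genes between replicate 1 and replicates 2 and 3, by role, with filled points for an edgeR adjusted p under 0.05. EPAS1 (1.14) and PKM (1.04) lead the 9 higher genes, and PFKM (-0.41) is the lowest of the 6 called lower.

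For other genes of the pathway, the averaged SCF response is read against the 9.03% of all genes that were called. None of the 11 tested of 23 other glycolysis genes and none of 7 pentose phosphate genes was called in the averaged response. BPGM, which makes the 2,3-bisphosphoglycerate that lowers the oxygen affinity of hemoglobin, averaged 61.4 and 53.4 CPM after PBS and SCF in sgControl cells and 62.2 and 53.1 CPM in sgEGR1 cells (-0.22, edgeR adjusted p = 0.173). Of 23 tested of 31 other oxygen-sensing and hypoxia genes, 2 were called. CITED2, which competes with HIF for its coactivator, fell from 533 to 345 CPM in sgControl and from 538 to 358 CPM in sgEGR1 cells (-0.61, adjusted p = 1.4e-05). DDIT4, a hypoxia-induced inhibitor of mTORC1, rose from 84.8 to 113 CPM and from 86.6 to 112 CPM (0.39, adjusted p = 0.00678).

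Pyruvate dehydrogenase turns pyruvate from glycolysis into acetyl-CoA in mitochondria. Of 10 genes for the complex and its regulators, a list without PDK1 and PDK3, 3 were called for SCF, against 9.03% of all genes. The list was chosen with earlier results of these data known, so this share is no test of the complex. PDK4, a kinase that switches the complex off, fell from 4.08 to 1.70 CPM in sgControl and from 4.85 to 1.72 CPM in sgEGR1 cells (-1.38, edgeR adjusted p = 2.22e-05). PDP1 and PDP2, the phosphatases that switch it on, rose by 0.34 and 0.32 (adjusted p = 0.00147 and 0.00928). The subunits PDHA1, PDHB, PDHX, DLAT and DLD were not called for SCF. No gene of these 4 lists was called between guides. By replicate number, 6 of 11 other glycolysis genes, 11 of 23 other hypoxia genes, 6 of 10 pyruvate dehydrogenase genes and 4 of 7 pentose phosphate genes were called, where 26.6% of all genes were.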

How the data were processed

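The 12 RNA-seq libraries were grouped by the labels. The authors aligned reads to hg38 with HISAT2 and deposited estimated counts per gene from StringTie, and 0 values were not whole and 0 further sample columns were present. Multi-mapping and strand use were not stated, which bears on genes with copies or overlapping exons. The guide code of the columns was taken as sgEGR1, the only construct besides the scrambled guide.

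Counts were fitted with edgeR 4.0.16 in R 4.3.3 (TMM, filterByExpr, quasi-likelihood F test, 1 coefficient per group, Benjamini-Hochberg over 15492 genes, threshold 0.05). SE is the absolute log2 fold change over the root of F. The study's methods call the replicates biological, the labels name no separate culture, and p-values measure the spread between these samples, with 23.5 to 32.04 megacounts each. Members and lists were chosen with earlier results of these data known. The rule named every member called and the 3 highest and 3 lowest per comparison, and further genes were named after their values were seen. Same-numbered residuals correlated between guides at 0.102 to 0.269, above 0.1 in every pair. The numbers were therefore treated as pairing there, through the replicate block, since the fit without a replicate term ignores them. Between PBS and SCF the residuals correlated at 0.00766 to 0.272, under 0.1 in replicate 2 of both guides and replicate 3 of sgEGR1 cells. Pair counts for SCF are therefore descriptive. Alternatives were DESeq2 1.42.0, RLE factors, no filter, a replicate block, a replicate 1 term, replicates 2 and 3, leaving out each library and a 1.5-fold minimum. The code was tested on simulated data. Gene positions came from GENCODE v44 on GRCh38 and promoter sequences from RefSeq on GRCh38.p14. A gene of the erythroid marker list is not reported here by name.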

Additional observations from a re-analysis of the deposited data

How the results depend on the processing

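Counts of members called depended mainly on whether replicate 1 was modelled. In the order sgControl response, sgEGR1 response and averaged SCF response, edgeR without a replicate term called 0, 0 and 3 members, DESeq2 1, 1 and 6, the replicate block 4, 2 and 10, the replicate 1 term 5, 2 and 10, replicates 2 and 3 alone 2, 1 and 7, and the term without sgEGR1 SCF replicate 3 4, 2 and 9. Over 15492 genes, edgeR without a term called 448, 402 and 1399 and DESeq2 716, 733 and 1736. The block called 1184, 1235 and 2799 genes, and the term 1289, 1326 and 2868. Replicates 2 and 3 alone called 575, 690 and 1748 of 15506 genes. The last fit, the term without sgEGR1 SCF replicate 3, called 1186, 778 and 2442 of 15824 genes. The last fit was chosen after seeing the data for all but the averaged SCF response and the guide difference after SCF. A minimum of 1.5-fold left 0 members for the averaged SCF response and 3 of 15 for replicate 1, against 220 and 598 of 15492 genes. For the guide difference after PBS, after SCF and averaged, where edgeR without a term called 0, DESeq2 gave 1, 0 and 1, replicates 2 and 3 alone 1, 1 and 1, the block 0, 0 and 1, the term 0, 0 and 4, and the term without sgEGR1 SCF replicate 3 2, 1 and 5. Over all genes DESeq2 called 20, 5 and 28, replicates 2 and 3 alone 3, 2 and 12, and the block 2, 2 and 49. The term called 4, 2 and 58 genes, and without that library 51, 38 and 233. Leaving out 1 library gave 1 to 4 members for the averaged SCF response (1032 to 1408 of all genes) and 0 to 1 for the averaged guide difference (0 to 22). It gave 12 to 16 members for replicate 1 (2863 to 3900 of all genes) and 0 members elsewhere. The interaction stayed at 0 members in every alternative run. The lowest count for SCF, 1, came without sgControl PBS replicate 2, sgEGR1 PBS replicate 2 or 3, or sgEGR1 SCF replicate 2, and the count of 1 between guides without sgEGR1 SCF replicate 3. The causes were not tested. RLE factors and no filter gave counts within 1.5 times throughout. The replicate block changed no other guide call.

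Some uncalled fold changes turned in sign. ANKRD37 for SCF ran from -0.32 to 0.10 without 1 library and was 0.39 in replicates 2 and 3. Without 1 library EPAS1 ran from -0.0201 to 0.49 for SCF, -0.0079 to 0.86 and -0.39 to 0.66 between guides after PBS and SCF, and -0.82 to 0.24 for the interaction, SLC2A3 from -0.54 to 1.86 between guides, and ALDOA from -0.27 to 0.49 for the interaction. Depth limits ADM, ANKRD37, EGLN3, HK2 and SLC2A3, where a count of 0 allows up to 3 counts.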
